A study of Mus musculus with 10 samples.

Results

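The alpha-arrestin genes Arrdc3, Arrdc1, Arrdc2, Arrdc4 and Txnip were taken by name, 5 genes among the 55494 of the annotation. They were selected on the measured levels of Arrdc3, which differed strongly between libraries, so those levels are given as a description without a test. RNA-seq libraries were made from leukemia initiating cells (LICs), transformed B cell precursors isolated from spleens of Eμ-Ret mouse pups by fluorescence-activated sorting. All pups carried the RFP/RET transgene, a fusion of a receptor kinase driven by the Eμ enhancer of the immunoglobulin heavy chain locus, which is active in lymphoid cells, and no group without it is part of the comparison. The pups are labelled 13 days of age, and their cells were taken 7 days after the treatment. Pups behind the 5 control libraries received 50 µl PBS, and those behind the 5 treated libraries 20 µg Poly(A:U), a double-stranded RNA ligand of Toll-like receptor 3. The labels do not say whether a library came from 1 pup or from several, so p-values measure the spread between libraries. The question was what Poly(A:U) does to the LICs.

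Alpha-arrestins are adaptor proteins with the fold of the better known beta-arrestins. Their tails carry PPxY motifs that bind the WW domains of NEDD4-family ubiquitin ligases, and they bring these ligases to receptors and transporters that are then ubiquitinated, internalised or sorted. TXNIP also binds and inhibits thioredoxin and lowers glucose uptake through the transporter GLUT1. Its gene, like Arrdc4, is switched on by glucose through the transcription factors MondoA or ChREBP with their partner MLX. ARRDC3 acts on the beta2-adrenergic receptor and on integrin beta4, and ARRDC1 recruits the ESCRT protein TSG101 to the plasma membrane, where it buds off small vesicles.

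On mm10 in GENCODE M21, Txnip lies at chromosome 3, 96557957 to 96561883 (plus strand), Arrdc3 at chromosome 13, 80883384 to 80896042 (plus), Arrdc1 at chromosome 2, 24925352 to 24935252 (minus), Arrdc2 at chromosome 8, 70835129 to 70839720 (minus) and Arrdc4 at chromosome 7, 68736995 to 68749241 (minus). The 3 promoters below are shown because their genes stood at 3 different levels in the LICs: Txnip was abundant, Arrdc3 varied between libraries and Arrdc4 was almost absent. Each is the 250 bases before a RefSeq gene start on GRCm38.p6, 5′ to 3′ on the strand of the gene, with matches to the motifs searched in capitals. The Txnip promoter lies at chr3:96557707-96557956 (plus strand), that of Arrdc3 at chr13:80883172-80883421 (plus strand) and that of Arrdc4 at chr7:68749239-68749488 (minus strand).
Txnip: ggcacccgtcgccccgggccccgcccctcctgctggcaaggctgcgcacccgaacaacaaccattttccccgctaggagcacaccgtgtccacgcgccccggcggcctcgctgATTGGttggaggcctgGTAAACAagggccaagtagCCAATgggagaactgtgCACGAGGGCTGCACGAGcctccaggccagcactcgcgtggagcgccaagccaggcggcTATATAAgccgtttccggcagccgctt
Arrdc3: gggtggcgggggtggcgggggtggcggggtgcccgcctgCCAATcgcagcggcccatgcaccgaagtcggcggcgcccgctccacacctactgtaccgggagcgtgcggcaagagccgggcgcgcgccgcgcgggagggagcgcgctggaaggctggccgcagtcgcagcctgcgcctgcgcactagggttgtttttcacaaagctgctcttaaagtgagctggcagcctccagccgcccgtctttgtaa
Arrdc4: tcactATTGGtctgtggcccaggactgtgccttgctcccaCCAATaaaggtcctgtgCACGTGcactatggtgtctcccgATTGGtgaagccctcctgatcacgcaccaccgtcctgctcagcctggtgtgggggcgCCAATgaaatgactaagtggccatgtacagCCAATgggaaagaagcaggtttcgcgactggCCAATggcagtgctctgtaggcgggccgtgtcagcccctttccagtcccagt
The motifs, chosen after the sequences were seen and searched on both strands, were the E-box CACGTG, the paired E-box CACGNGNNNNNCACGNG of carbohydrate response elements, the CCAAT box CCAAT, the forkhead motif GTAAACA, the TATA motif TATATAA and the glucocorticoid receptor motif AGAACA. Txnip held the paired E-box, which starts 85 bases before the gene start and which 0.0457% of all 32817 promoter windows held. It also held the forkhead motif (3.16% of windows), the TATA motif (3.04%) and 2 CCAAT boxes (33.8% held at least 1). Arrdc4 held an E-box (6.02% of windows) and 6 CCAAT boxes, and Arrdc3 held 1 CCAAT box and none of the other motifs in this window. Arrdc2 held 3 CCAAT boxes and Arrdc1 none of the motifs. AGAACA (16.1% of windows) was in none of the windows of the 5 genes.

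Libraries held between 17849661 and 22572131 estimated reads on genes. The LICs carried B cell precursor transcripts, with Cd79a, which encodes the signalling partner of surface immunoglobulin, at 2541 CPM (read counts scaled to the library total) or more throughout. The libraries PBS 1, PBS 2 and PBS 3 share a start of their names that the remaining 7 lack, and are called the shared-start libraries here. PBS 4 stood apart from all others, with 16032 genes at 10 or more reads against 13423 to 14723 and a median across-gene correlation to its fellows of 0.9395, against 0.9662 or more. What the name start stands for is not stated. It occurs in PBS libraries only, so within the PBS group it can be compared with PBS 4 and PBS 5 alone.

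Arrdc3, on chromosome 13, stood in the PBS group at 151 CPM in PBS 1, 118 CPM in PBS 2, 124 CPM in PBS 3, 33.9 CPM in PBS 4 and 37.5 CPM in PBS 5. In the Poly(A:U) group it stood at 34.5, 29.5, 35.4, 43.3 and 33.5 CPM in Poly(A:U) 1 to Poly(A:U) 5. PBS 1 to PBS 3 were thus high, and PBS 4 and PBS 5 lay inside the range of the Poly(A:U) libraries, so the treatment groups overlapped. The mean of PBS 1 to PBS 3 was 131 ± 17.7 CPM (SD, n = 3) and that of the other 7 libraries 35.4 ± 4.26 CPM (SD, n = 7), a 3.70-fold ratio. Counting error was between 1.8% and 4.02% of the level in each library, which does not cover variation between samples.

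By treatment, Arrdc3 averaged 92.9 ± 53.7 CPM in the PBS group against 35.2 ± 5.05 CPM after Poly(A:U) (SD, n = 5 each), and the fitted log2 difference, Poly(A:U) minus PBS, was -1.42 ± 0.42 (SE). This value rested on the 3 libraries of the shared name start. Without PBS 1 to PBS 3 it was -0.05, and with the name start as a term in the fit it was -0.06. The authors' deposited table of normalized CPM showed the same split, with Arrdc3 at 161, 115.5 and 124.6 in the shared-start libraries and from 30.33 to 41.73 in the rest.

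**Figure D1:**
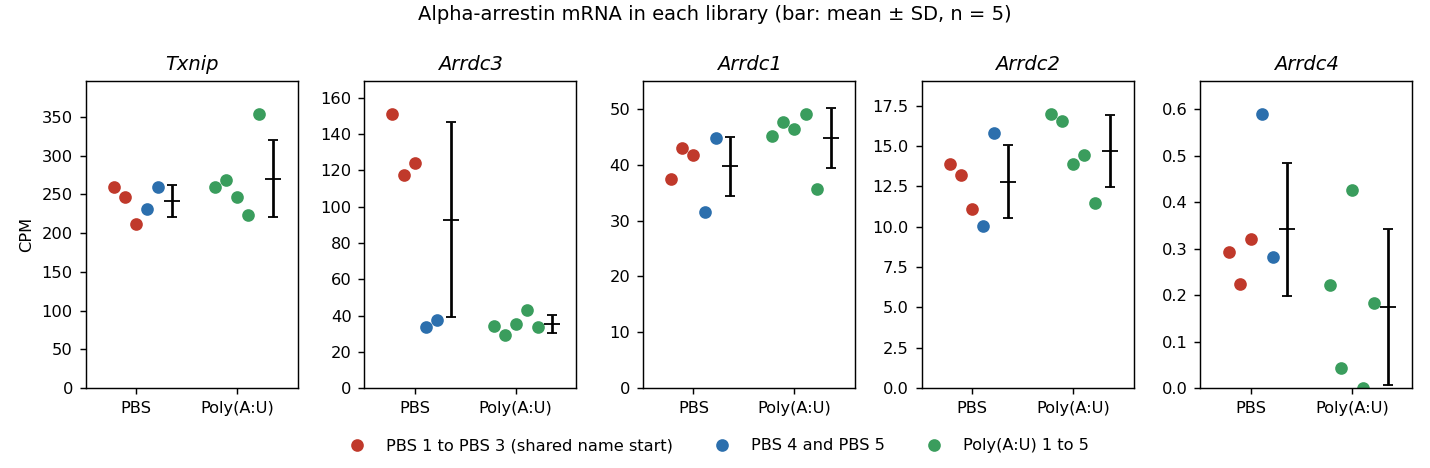
Level of each alpha-arrestin gene in CPM (y axis, each panel with its own scale from 0) in the 5 PBS and 5 Poly(A:U) libraries, one point per library with the mean and SD beside them. For Arrdc3, PBS 1 to PBS 3 (red) lie at 118 CPM or more while PBS 4 and PBS 5 (blue) lie among the Poly(A:U) libraries (green), and no such split is seen for the other 4 genes.

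Txnip, the thioredoxin-binding member, was the most abundant alpha-arrestin. Its level was 259, 247, 212, 231 and 259 CPM in PBS 1 to PBS 5 and 259, 268, 247, 223 and 354 CPM in Poly(A:U) 1 to Poly(A:U) 5. The groups overlapped, and Poly(A:U) 5 was the highest library. In the authors' deposited table of normalized CPM the highest was instead Poly(A:U) 2 at 361.8, with Poly(A:U) 5 at 318.3. The means were 241 ± 20.1 CPM in the PBS group against 270 ± 49.7 CPM after Poly(A:U) (SD, n = 5 each). The log2 difference of 0.13 ± 0.11 (SE; 95% interval -0.11 to 0.38) was not called by edgeR's quasi-likelihood test (adjusted p = 0.754). Without Poly(A:U) 5 it was 0.03.

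Arrdc1, the adaptor of TSG101, was at 37.5, 42.9, 41.8, 31.6 and 44.7 CPM in PBS 1 to PBS 5 and at 45.1, 47.6, 46.4, 49.1 and 35.6 CPM in Poly(A:U) 1 to Poly(A:U) 5. Its lowest libraries were PBS 4 and Poly(A:U) 5, whose names have a number in common. The other Poly(A:U) libraries lay above all PBS libraries, the closest at 45.1 against 44.7 CPM. In the authors' deposited table of normalized CPM this did not hold, with Poly(A:U) 3 at 46.01 and PBS 2 at 46.15. The means were 39.7 ± 5.27 and 44.8 ± 5.34 CPM (SD, n = 5 each), with a log2 difference of 0.15 ± 0.12 (SE; 95% interval -0.11 to 0.41; adjusted p = 0.737, edgeR quasi-likelihood test). Arrdc2, a less studied member of the family, was at 13.9, 13.2, 11.1, 10.03 and 15.8 CPM in the PBS group against 17.0, 16.6, 13.9, 14.5 and 11.5 CPM after Poly(A:U), PBS 4 and Poly(A:U) 5 again being the lowest of their groups. The means were 12.8 ± 2.28 and 14.7 ± 2.24 CPM (SD, n = 5 each), with a log2 difference of 0.18 ± 0.15 (SE; 95% interval -0.16 to 0.51; adjusted p = 0.763, edgeR quasi-likelihood test). The intervals of Txnip, Arrdc1 and Arrdc2 leave out a 2-fold change in either direction, and changes inside the intervals could not be told from none.

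Arrdc4, the glucose-responsive relative of Txnip, was close to the limit of detection. It had between 0 and 12 reads per library, 52 over all 10 libraries. Its levels were 0.293, 0.224, 0.320, 0.590 and 0.283 CPM in the PBS group against 0.223, 0.0443, 0.426, 0 and 0.182 CPM after Poly(A:U). The count of 0 in Poly(A:U) 4 allows up to 3 counts, or 0.168 CPM, for counting error only. The groups overlapped. Arrdc4 did not pass the filter on low counts, so 4 of the 5 genes were tested.

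Over all 13729 genes tested, edgeR's quasi-likelihood test called 0 genes between Poly(A:U) and PBS (0%), with 1002 at an unadjusted p below 0.05. DESeq2's Wald test called 13 genes and limma voom with quality weights 932. Txnip, Arrdc1 and Arrdc2 were called by none of these tests. Groups that did not overlap were found for 130 genes (0.947%), and none of the 5 alpha-arrestins was among them.

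**Figure D2:**
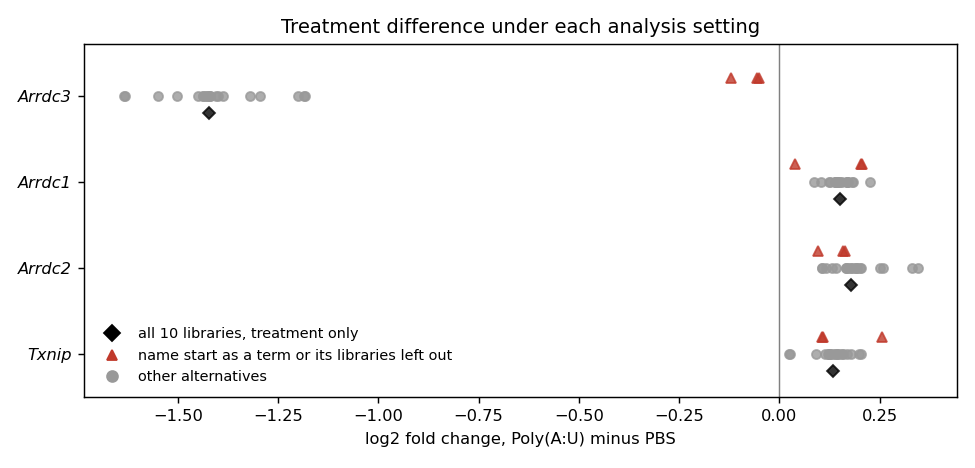
Log2 fold change, Poly(A:U) minus PBS (x axis), of the 4 alpha-arrestins that passed the filter under each analysis setting: all 10 libraries with treatment alone (black diamonds), settings that leave out or model PBS 1 to PBS 3 (red triangles) and the other alternatives (grey). Arrdc3 moves from -1.42 to between -0.12 and -0.05 under the red settings, while the other 3 genes stay between 0.02 and 0.35 throughout.

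Levels of different genes were compared per length, as TPM (transcript abundance scaled by length). Txnip averaged 133 ± 27.9 TPM, Arrdc1 40.9 ± 6.28 TPM and Arrdc2 10.4 ± 1.75 TPM (SD, n = 10), and Arrdc4 was at most 0.193 TPM. Arrdc3 took different places in this order. In PBS 1 to PBS 3 it was at 40.4 to 61.7 TPM and Arrdc1 at 38.0 to 43.6 TPM, the ratio of Arrdc1 to Arrdc3 being 0.677 in PBS 1, 1.08 in PBS 2 and 0.869 in PBS 3. In the other 7 libraries it was at 9.21 to 15.3 TPM, overlapping Arrdc2 at 7.22 to 12.7 TPM and below Arrdc1 at 26.9 to 51.6 TPM. Its share of the summed TPM of the 5 genes was 18.5% to 24.1% in PBS 1 to PBS 3 and 4.20% to 8.15% elsewhere, and the ratio of Txnip to Arrdc3 was 2.31 to 3.12 against 7.17 to 17.3. The highest ratio was in Poly(A:U) 2, where 45.5 of the 159 TPM of Txnip came from the short processed transcript Txnip-204. Txnip held more than any other member in every library, between 53.3% and 75.2% of the sum.

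The 5 genes did not move as a block. Because Arrdc3 falls into separate groups of libraries, correlations of log2 CPM are given within the 7 libraries outside the shared name start, as a description. Arrdc1 and Arrdc2 moved together there (Pearson r = 0.90, Spearman rho = 0.71, n = 7), and over all 10 libraries r was 0.79. Arrdc3 and Txnip moved in opposite directions in CPM within the 7 (r = -0.75, rho = -0.86), and over all 10 libraries r was -0.37. By r over all 10 Txnip ranked 6902 from the top of 9358 genes in likeness to Arrdc3. In TPM, for which no correlation was computed, Poly(A:U) 5 had the highest Txnip at 198 TPM. Its Arrdc3 was at 14.0 TPM, near the upper end of the 9.21 to 15.3 TPM of the 7 libraries, so the opposite movement is tied to CPM. Within each library the genes share its total and its cell makeup, and PBS 4 and Poly(A:U) 5 were at the low end of Arrdc1 and Arrdc2 in CPM. In TPM this did not hold for Poly(A:U) 5, where Arrdc2 was at 12.2 TPM, close to its highest value of 12.7 TPM.

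Transcript estimates were examined for the forms that make up each gene. Most Txnip reads went to the coding forms Txnip-201 and Txnip-202. The processed transcript Txnip-204 took 6.57% of Txnip reads in Poly(A:U) 2 and 0 reads in the other 9 libraries. The coding forms differ at the junction of exons 1 and 2 by 3 coding bases, shown in capitals, and at their outer ends, including 26 bases at the 3′ end. Arrdc3-201 is the coding form of Arrdc3, and Arrdc3-203 starts exon 7 at a splice site further upstream, which adds 38 bases (capitals) and shifts the frame so that the last 3 bases printed become a stop codon. The sequences around these junctions, from the GENCODE M21 transcripts, are given 5′ to 3′.
Txnip-201: aagagcagcctacaggtgagaacgagatgg
Txnip-202: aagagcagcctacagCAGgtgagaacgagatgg
Arrdc3-201: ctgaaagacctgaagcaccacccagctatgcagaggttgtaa
Arrdc3-203: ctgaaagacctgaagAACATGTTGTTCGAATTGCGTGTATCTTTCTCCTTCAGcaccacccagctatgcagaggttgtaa
In Txnip-202 exon 2 starts at position 96558889 of chromosome 3, and in Txnip-201 at 96558892. The extra exonic stretch of Arrdc3-203 starts at 80891450 of chromosome 13, and exon 7 of Arrdc3-201 at 80891488 (mm10).

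Of the reads of Txnip-201 and Txnip-202, the form with the 3 extra bases took 69.0%, 69.6% and 69.9% in PBS 1 to PBS 3, 60.1% and 57.0% in PBS 4 and PBS 5, and 63.4%, 63.9%, 59.4%, 58.6% and 64.0% in Poly(A:U) 1 to Poly(A:U) 5. PBS 1 to PBS 3 were above all other libraries, as they were for the level of Arrdc3, while the summed level of Txnip did not split that way. This share was singled out after its values were seen and was not tested, and it rests on the authors' estimation, which has few bases to tell the forms apart. Arrdc3-203 took between 10.8% and 17.7% of Arrdc3 reads in PBS 1 to PBS 3 and between 3.05% and 62.0% in the other libraries, Poly(A:U) 1 being the highest. Arrdc3-201 took from 37.6% to 96.5%. The split of Arrdc3 by name start was present in Arrdc3-201 itself, at 34.6 to 51.8 TPM in the shared-start libraries against 4.63 to 14.8 TPM elsewhere. Arrdc3-205, a coding form starting at 80886095 downstream of the promoter printed above, had 0 reads in every library.

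**Figure D3:**
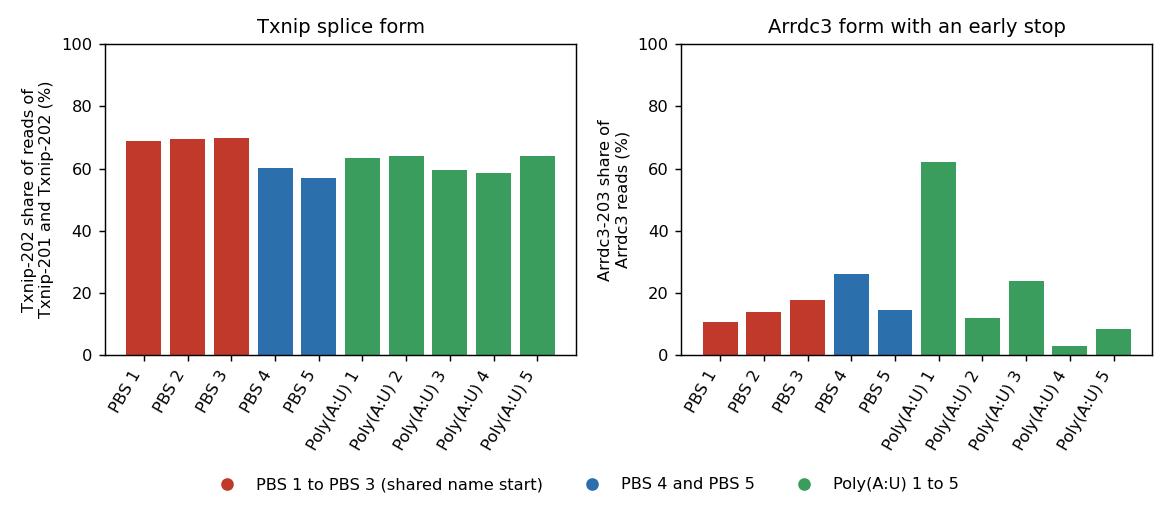
Estimated share (y axis, percent, from 0 to 100) of Txnip-202 among the reads of Txnip-201 and Txnip-202 (left) and of Arrdc3-203 among Arrdc3 reads (right) in each library. The Txnip-202 share is 69.0% to 69.9% in the shared-start libraries and no more than 64.0% elsewhere, and the Arrdc3-203 share has no such split, with Poly(A:U) 1 at 62.0%.

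Genes on the opposite strand contributed little. Gm15441, an antisense RNA gene that spans Txnip, had 8 to 19 reads per library, and 1700023H06Rik, opposite an intron of Arrdc3, had 0 to 12. Whether the counting used strand is not given in the sources used here, so reads of overlapping exons cannot be assigned with certainty.

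Among 9358 named genes averaging 5 CPM or more, those whose log2 CPM followed Arrdc3 most closely over the 10 libraries were Ticam1, the adaptor of Toll-like receptor 3 (r = 0.97), the cytokine gene Il16 (r = 0.96), Taf3 of the basal transcription machinery (r = 0.95), Mrtfa, a coactivator of serum response factor (r = 0.95), Fam53b (r = 0.95) and Kctd10 (r = 0.94). All 6 were higher in each shared-start library than in the other 7. Ticam1 was at 29.8 to 35.3 CPM in the shared-start libraries against 21.9 to 24.2 CPM elsewhere. Their ratios between the 2 sets of libraries were 1.26 to 1.43, against 3.70 for Arrdc3. Within the other 7 libraries their r with Arrdc3 fell between -0.38 and 0.43, so the likeness rests on PBS 1 to PBS 3.

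The genes most opposite to Arrdc3 were the galactosyltransferase gene B4galt3 (r = -0.98), the immediate-early gene Ier2 (r = -0.98), Xist, the RNA of the inactive X chromosome (r = -0.98), and the lipid transfer gene Cptp (r = -0.97). Ier2 was at 41.8 to 55.1 CPM in the shared-start libraries against 90.0 to 121 CPM in the others, and B4galt3 at 12.1 to 14.6 and 20.0 to 24.3 CPM. Within the other 7 libraries r with Arrdc3 was -0.83 for Ier2, -0.79 for B4galt3, 0.16 for Xist and -0.29 for Cptp. These 7 are among the libraries by which the genes were picked, so these r add no separate support. These are descriptions over few libraries.

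**Figure D4:**
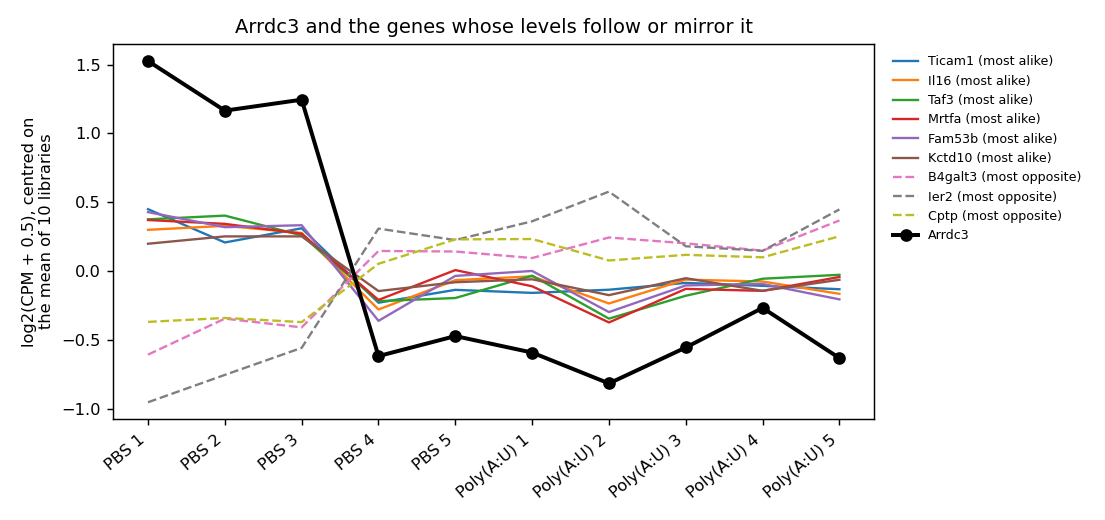
Log2(CPM + 0.5) centred on the mean of the 10 libraries (y axis) for Arrdc3 (black), its 6 most alike genes (solid) and 3 of its 4 most opposite genes (dashed, Xist left out for scale). The lines join libraries only to guide the eye. The alike genes are higher in PBS 1 to PBS 3 than in the other 7 libraries, among which they also vary, Mrtfa for example from 80.9 to 105 CPM.

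For Txnip the most alike genes were Tmem129 (r = 0.91), Plpp3 (0.88), Hspa4l (0.88), Pknox1 (0.87), Zfp3 (0.87) and Dvl3 (0.86), and the most opposite were Rtca (-0.91), Gdi2 (-0.91), Ap3s1 (-0.90) and Vdac2 (-0.88). None of these 10 was among the genes named for Arrdc3. The likeness was looser without Poly(A:U) 5, the library with the highest summed Txnip count, where r was 0.82 for Tmem129 and 0.63 for Dvl3.

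Markers of other cells moved with the split of Arrdc3. All 10 neutrophil markers were higher in each shared-start library than in the other 7, with a summed level of 691 to 1041 CPM against 29.5 to 261 CPM, and S100a9, a neutrophil calcium-binding protein gene, was at 201 to 302 CPM against 7.48 to 75.1 CPM. Erythroid markers ran the other way, 7 of 9 being lower in each shared-start library, with sums of 138 to 432 CPM against 1355 to 12306 CPM. The Y-linked gene Eif2s3y was at 42.1 to 57.9 CPM in the shared-start libraries and no more than 2.80 CPM elsewhere. All 4 Y-linked markers were higher in each shared-start library than in the other 7. Xist was at 0.0533 to 0.336 CPM in the shared-start libraries against 112 to 687 CPM in the other 7. Among these 7, PBS 4 had both the lowest Xist, at 112 CPM, and the highest Eif2s3y, at 2.80 CPM. Sex-chromosome expression therefore split the libraries as the name start did, and the name start occurs in PBS libraries only. These cannot be told apart here, and their part in the level of Arrdc3 was not tested. B cell precursor markers summed to 12368 to 13113 CPM in the shared-start libraries against 8200 to 11740 CPM elsewhere, natural killer markers to 11.2 to 12.2 and 5.94 to 13.4 CPM, stromal markers to 145 to 154 and 127 to 182 CPM, and platelet markers to 8.85 to 10.1 and 8.67 to 19.0 CPM. Macrophage markers summed to 25.9 to 30.8 CPM in the shared-start libraries against 12.6 to 152 CPM elsewhere, and T cell markers to 25.6 to 28.3 and 22.2 to 224 CPM, the highest sum of both being in PBS 4. No marker was at 0 in all libraries, and Dcn and Gp1bb were at 0 in PBS 1 to PBS 3. In Poly(A:U) 3, the highest of the other 7 libraries in neutrophil markers at 261 CPM, Arrdc3 was at 35.4 CPM, and in Poly(A:U) 5, the lowest at 29.5 CPM, it was at 33.5 CPM. The part of these cells in the level of Arrdc3 was not tested. In bulk samples a change in the number of cells of a type and a change in RNA per cell cannot be told apart.

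**Figure D5:**
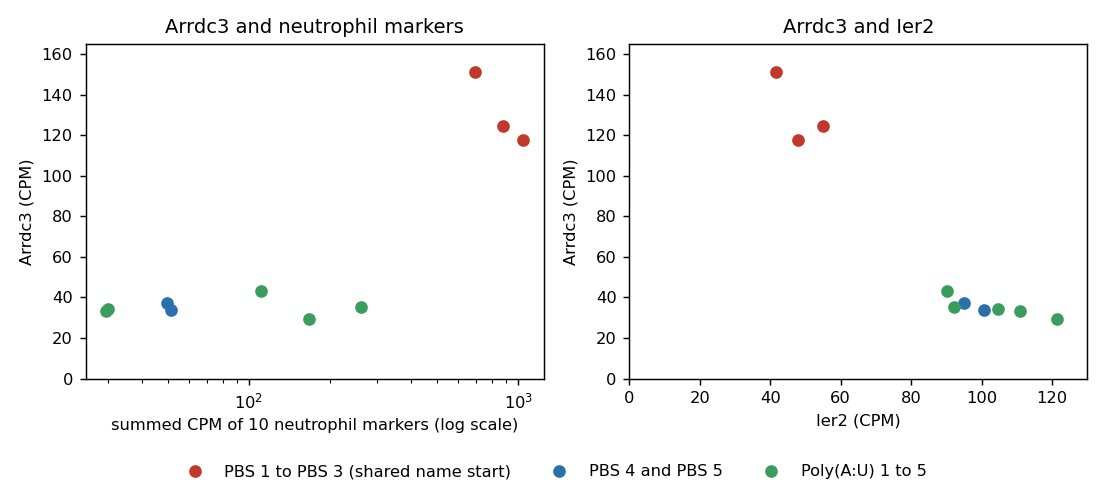
Arrdc3 (y axis, CPM) against the summed CPM of 10 neutrophil markers (left, log scale) and against Ier2 (right, CPM), one point per library. PBS 1 to PBS 3 form a group apart in both panels, and among the other 7 libraries Arrdc3 stays between 29.5 and 43.3 CPM while the neutrophil sum runs from 29.5 to 261 CPM.

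The pathways around the alpha-arrestins were then examined as lists, each set beside all genes tested, of which 6784 were higher and 6945 lower in Poly(A:U) with a median log2 difference of -0.0024. No member of any list was called by edgeR's test for the treatment. The glucose sensors that control Txnip and the genes of the glucose response had 9 of 10 tested, 4 higher and 5 lower, with a median of -0.01. Mlxip, which encodes MondoA, was at 158 ± 24.1 CPM in the PBS group against 154 ± 27.6 CPM after Poly(A:U) (SD, n = 5 each), and Klf10 at 14.5 ± 5.11 and 20.9 ± 3.48 CPM. Mlxipl, which encodes ChREBP, did not pass the filter. Of the glucose transporters 5 of 9 were tested, 3 higher and 2 lower, with a median of 0.02, and Slc2a1, which encodes the TXNIP cargo GLUT1, was at 25.6 ± 12.8 and 24.3 ± 1.79 CPM. The thioredoxin system had 15 of 16 tested, 8 higher and 7 lower, with a median of 0.02. Txn1, the thioredoxin that TXNIP binds, was at 222 ± 19.1 CPM in the PBS group against 249 ± 27.8 CPM after Poly(A:U), and the peroxiredoxin gene Prdx1 at 311 ± 32.1 and 351 ± 31.1 CPM.

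The ubiquitin ligases and adaptors of the NEDD4 family, the partners of the PPxY motifs, had 9 of 11 tested, 4 higher and 5 lower, with a median of -0.08. Nedd4 was at 235 ± 25.04 CPM in the PBS group against 249 ± 50.1 CPM after Poly(A:U), Itch at 111 ± 18.02 and 100.2 ± 21.6 CPM, and Wwp2, with a log2 difference of -0.16 ± 0.07 (SE), at 137 ± 6.99 and 124 ± 8.58 CPM (adjusted p = 0.677, edgeR quasi-likelihood test). Other genes of the arrestin fold had 7 of 10 tested, 3 higher and 4 lower, with a median of -0.01. The beta-arrestin genes Arrb1 and Arrb2 were at 36.4 ± 11.7 and 63.6 ± 7.33 CPM in the PBS group against 38.5 ± 6.56 and 66.9 ± 5.43 CPM after Poly(A:U). Endosomal sorting genes had 14 of 14 tested, 7 higher and 7 lower, with a median of 0.00, and Stam2, an ESCRT adaptor, was at 21.9 ± 1.16 and 25.5 ± 3.19 CPM. Receptors named as cargo had 6 of 10 tested, 2 higher and 4 lower, with a median of -0.05, among them the transferrin receptor gene Tfrc at 151 ± 52.3 and 201 ± 12.4 CPM.

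Genes of the glucocorticoid response had 13 of 14 tested, 4 higher and 9 lower, with a median of -0.12. Tsc22d3, a target of the glucocorticoid receptor, was at 112 ± 41.9 CPM in the PBS group against 88.8 ± 16.9 CPM after Poly(A:U). It ran from 117 to 152 CPM in the shared-start libraries and from 52.6 to 104 CPM in the other 7, a difference that was not tested. The name-start term described below compares PBS 1 to PBS 3 with PBS 4 (52.6 CPM) and PBS 5 (90.8 CPM) only. It did not call Tsc22d3 (adjusted p = 0.0995, edgeR). FOXO factors and their targets had 17 of 18 tested, 7 higher and 10 lower, with a median of -0.07. Foxo1, a transcription factor of B cell development, was at 772 ± 193 and 677 ± 92.7 CPM. It ran from 830 to 930 CPM in the shared-start libraries against 466 to 801 CPM in the other 7, likewise not tested. Against PBS 4 (466 CPM) and PBS 5 (709 CPM) the name-start term did not call Foxo1 (adjusted p = 0.115, edgeR). Klf2, a quiescence factor, was at 29.6 ± 19.2 and 43.3 ± 12.4 CPM. By name start it ran the other way, being lower in each shared-start library than in the other 7, and so did Ccng2 of this list. The name-start term gave log2 differences of -1.19 for Klf2 and -0.397 for Ccng2, neither called (adjusted p = 0.164 and 0.149, edgeR). Il7r, also of this list, went the way of Foxo1 (0.287, not called). The list medians of this term were 0.14 for FOXO and 0.07 for glucocorticoid response genes, with 0 genes called in each list. Immediate-early and sorting stress genes had 17 of 20 tested, 13 higher and 4 lower, with a median of 0.29, which was -0.01 without PBS 1 to PBS 3.

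The immediate-early list held most of the list genes that were called by name start. With the name start as a term, edgeR's quasi-likelihood test called 18 of 13729 genes higher (0.131%) and 59 lower (0.43%) in PBS 1 to PBS 3 than in PBS 4 and PBS 5. The contrast that chose Arrdc3 is the same split, so nothing is read from its place in it. Of the 17 immediate-early and stress genes 4 were called lower and 0 higher, with a list median of -0.68. Fosl2 (0.95), Egr3 (0.60), Nr4a1 (0.53) and Egr2 (0.09) had log2 differences in the other direction and were not called. Egr1, a growth factor response transcription factor, was at 26.6 to 36.1 CPM in the shared-start libraries. It was at 109 CPM in PBS 4 and 93.0 CPM in PBS 5 (log2 difference -1.72, adjusted p = 0.00267, edgeR). In the Poly(A:U) libraries, which this contrast does not compare, Egr1 was at 82.0 to 126 CPM. Ier2 had -1.03 (adjusted p = 0.0212, edgeR). It was also picked above as opposite to Arrdc3 across the same split, so its call adds no separate support. Dusp5 and Dnajb1, named after their values were seen, had -1.46 and -0.68 (adjusted p = 0.0159 and 0.0356, edgeR). Fos itself was not called, at 1.97 to 4.26 CPM against 1.23 CPM in PBS 4 and 9.76 CPM in PBS 5. In the other lists Klf10 and Tfrc were called lower (adjusted p = 0.0387 and 0.0212, edgeR). Tfrc was at 114 to 119 CPM in the shared-start libraries against 172 CPM in PBS 4 and 233 CPM in PBS 5. Without PBS 4, with PBS 5 as the only other PBS library, the term called 6 genes higher (0.0432%) and 16 lower (0.115%), where the lone PBS 5 is assumed to vary like the other groups. In that fit the log2 differences were -1.57 for Egr1 (adjusted p = 0.0124, edgeR), -1.72 for Dusp5 (0.00681) and -0.998 for Tfrc (0.0110). Those of Ier2 (-0.97), Dnajb1 (-0.52) and Klf10 (-0.77) kept their sign and were not called (adjusted p = 0.112, 0.194 and 0.186, edgeR). For the alpha-arrestins other than Arrdc3 the term gave 0.09 for Arrdc1, -0.03 for Arrdc2 and -0.05 for Txnip on the log2 scale (adjusted p = 0.854, 0.966 and 0.917, edgeR).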

How the data were processed

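RNA was sequenced from sorted LICs in 5 PBS and 5 Poly(A:U) libraries, grouped by title. The authors deposited estimated counts and TPM values per transcript for each library, per the file headers, and a table of normalized CPM signal for 13699 genes. DRAGEN, edgeR 3.38.4 and mm10 are named in the submitters' processing notes. The counter's settings, annotation and use of strand were not stated. Estimated counts were summed per gene with GENCODE M21 (538 of 142333 transcripts did not match, at most 0.0695% of reads) and rounded. Levels are CPM of library totals. Genes were kept by edgeR's filterByExpr (13729 genes) and tested by quasi-likelihood in edgeR (version 4.0.16 under R 4.3.3; TMM, robust, treatment as the only term), Benjamini-Hochberg over all genes, threshold 0.05, two-sided. Standard errors come from the F statistic. Scripts were first tested on simulated data. DESeq2 1.42.0 and limma 3.58.1 were alternatives.

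The members and lists were chosen with earlier results of these data known. Genes were named by rule: the 5 members, from each list the called genes or else the 2 with the smallest unadjusted p, 12 genes always included, the 2 highest markers of each marker list, and the 6 most and 4 least alike genes by Pearson r of log2 CPM (prior count 2). Not every gene the rule names is described. Markers were of B cell precursors, neutrophils, erythroid cells, macrophages, T cells, natural killer cells, stromal cells, platelets and the sex chromosomes.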

Additional observations from a re-analysis of the deposited data

Results flagged for a closer look

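Given here are genes for which a single library stood off from the rest of its treatment group, the gap to its neighbour exceeding 0.71 of the group's range. Of 110 such groups examined, 12 met this. Chance flags about 1 in 20, but this count is no test of an excess: Plpp3, Hspa4l, Pknox1 and Dvl3 were picked for following Txnip, which was highest in Poly(A:U) 5, and that choice favours such values. Among the alpha-arrestins it touched only Arrdc4, at 0.590 CPM in PBS 4 against 0.224 to 0.320 CPM in the other PBS libraries. Also in PBS 4, Slc2a1 was at 48.4 CPM against 17.97 to 21.4 CPM, Vps26b at 46.6 CPM against 20.4 to 24.7 CPM, Klf13 at 163 CPM against 234 to 250 CPM and Wwp2 at 124 CPM against 137 to 142 CPM. In PBS 5, Klf2 was at 63.4 CPM against 16.6 to 25.9 CPM and Pknox1 at 76.5 CPM against 61.4 to 65.7 CPM. In Poly(A:U) 5, Klf10 was at 27.1 CPM against 18.8 to 20.3 CPM, Txn1 at 201 CPM against 249 to 268 CPM, Plpp3 at 103 CPM against 53.8 to 67.6 CPM, Hspa4l at 20.99 CPM against 14.4 to 15.7 CPM and Dvl3 at 55.1 CPM against 44.0 to 46.1 CPM.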

How the results depend on the processing

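Txnip, Arrdc1 and Arrdc2 kept their direction and stayed uncalled under all 23 alternatives, with log2 differences of 0.02 to 0.26, 0.04 to 0.23 and 0.10 to 0.35 and adjusted p of 0.599 to 0.992, 0.265 to 0.955 and 0.471 to 0.992. Arrdc3 was at -0.0556 with the shared name start as a term, -0.12 with terms for all shared parts of the names and -0.0507 without PBS 1 to PBS 3. Leaving out single libraries gave -1.63 to -1.18. Genes called by treatment numbered 13 with DESeq2 and 932 with limma voom, and 0 to 18 when single libraries were left out, 18 being without PBS 5. The cause was not tested. Arrdc4 was fitted only with no filter, at -0.97 ± 0.82 (SE; adjusted p = 0.595, edgeR), and its depth of at most 12 reads limits it.

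The replicate numbers did not pair the samples: deviations from the group means correlated across genes between -0.18 and 0.14 for the same number. Numbers inside the library names link PBS 4 with Poly(A:U) 5, PBS 5 with Poly(A:U) 1, and Poly(A:U) 3 with Poly(A:U) 4. By these deviations PBS 4 was most like Poly(A:U) 5 (r = 0.37), whereas PBS 5 was most like Poly(A:U) 2 (r = 0.13). What these numbers stand for is not stated. With the replicate number as a block 0 genes were called, and the log2 differences were -1.20 for Arrdc3, 0.12 for Txnip, 0.15 for Arrdc1 and 0.18 for Arrdc2. The list medians moved by more than the spread between replicates in 5 of 10 lists without PBS 1 to PBS 3, in 1 with a filter of 10 CPM, and in none with RLE factors or without PBS 4.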
